A study of Mus musculus with 24 samples.

Results

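Mouse embryonic stem cells without MLL1 were followed through retinoic acid differentiation in 6 libraries, 3 taken after 4 days (day 4 Mll1-KO) and 3 of the same genotype taken before it (day 0 Mll1-KO). They were chosen by genotype and day alone and make up 6 of the 24 libraries of the series. The 3 day 4 WT and 3 day 0 WT libraries served as the reference course, to find genes that changed less or more in the mutant. Day 0 cells grew on gelatin in 15% serum with leukemia inhibitory factor (LIF). Day 4 cells had received 10% serum and 1 µM retinoic acid without LIF, so retinoic acid, loss of LIF, less serum and time in culture cannot be told apart. Mll1-KO cells were made with a pair of CRISPR guides around the deleted region, in a line that already carried a Cre-inducible Mll2 deletion. Mll1-KO and WT cells are both labelled untreated. The 6 double-KO and 6 Mll2-KO libraries came from cells given 800 nM 4-hydroxytamoxifen for 48 h. By genotype both lack MLL2, and double-KO cells lack MLL1 as well. These libraries were used to see whether a course difference returned between drug-treated cells without MLL2, with and without MLL1. The labels do not say whether double-KO and Mll1-KO cells came from the same edited clone, how many clones there were, or if replicates were grown separately. The p-values therefore measure spread between libraries that may be technical.

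MLL1, encoded by Kmt2a, is a histone methyltransferase of the MLL/COMPASS family, which places methyl marks on lysine 4 of histone H3 at promoters and enhancers. MLL1 is best known for keeping Hox genes active in the embryo and in blood cells. Retinoic acid enters the nucleus, binds RAR and RXR receptors that sit on response elements in DNA, and turns on receptor, carrier, degradation and Hox genes. In embryonic stem cells it ends the pluripotent state, and extraembryonic endoderm, neural and mesenchymal genes are among those that follow.

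Whole read counts (M, megareads) recovered from the table summed to 10.79 to 13.74 M in the day 4 Mll1-KO libraries and 17.7 to 20.88 M in the day 0 Mll1-KO libraries, against 13.41 to 15.62 M in day 4 WT and 21.83 to 22.54 M in day 0 WT. Levels are normalized counts, given per library in the order of the replicate numbers. Changes are differences of log2(normalized count + 1), which understate the change of genes with few reads, and stand with their SE and with p-values from limma adjusted over 15114 genes. A gene is called at an adjusted p below 0.05, and the fit held 3 libraries in each of 8 groups. All 8 groups share the spread estimate of a gene, so scatter of day 0 libraries near 0 also enters its SE at day 4. A day 4 difference that was not called for such a gene does not show equal levels. Kmt2a, the targeted gene (mm10 chr9:44803355-44881296, minus strand), was checked first. It had 56.3, 69.5 and 42.1 normalized counts in day 4 Mll1-KO and 20.6, 25.4 and 43.0 in day 0 Mll1-KO, against 2239, 2029 and 2156 in day 4 WT and 1097, 1047 and 1121 in day 0 WT. Every Mll1-KO library lay far below every WT library, by -5.26 ± 0.20 at day 4 and -5.22 ± 0.20 at day 0. The day 0 groups differed in the sums of some gene lists. A list of 23 glycolysis and hypoxia genes summed to 427808 to 460763 normalized counts in day 0 WT, the highest group. It summed to 338953 to 361232 in day 0 Mll1-KO, 350919 to 358593 in day 0 double-KO and 277862 to 284892 in day 0 Mll2-KO, the lowest. Genes of the 2-cell-like state summed to 2554 to 3079 in day 0 WT, against 1199 to 1673 in day 0 Mll1-KO. In day 0 double-KO they summed to 202 to 281, and in day 0 Mll2-KO to 367 to 674. The part of these levels in the results below was not tested, and 2 comparisons without any WT library are given beside them.

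Most genes changed in the same direction with and without MLL1. Pluripotency genes fell, and retinoid targets, Hox genes, endoderm transcription factors and matrix genes rose in Mll1-KO and in WT. From day 0 to day 4, 12710 of 15114 genes were called in Mll1-KO (84.1%), 6610 higher (43.7%) and 6100 lower (40.4%). At least 2-fold changes were called for 4077 genes rising (27%) and 3079 falling (20.4%). In WT, 12522 genes were called (82.9%), 6499 higher (43%) and 6023 lower (39.9%), with 3669 rising (24.3%) and 2846 falling (18.8%) at least 2-fold. Of the genes that rose at least 2-fold in WT, 3540 (96.5%) were also called as rising in Mll1-KO, and of those that fell, 2637 (92.7%) were called as falling. Both courses were called in the same direction for 11135 genes and in opposite directions for 252. Across the 15114 genes the log2 changes of both courses had a Pearson r of 0.942 and a slope of 1.03. The courses share no library, but genes are not independent replicates.

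The course difference, defined as the Mll1-KO change minus the WT change, was called for 5136 genes (34%), 2260 higher (15%) and 2876 lower (19%). At least 2-fold differences were called for 609 higher (4.03%) and 337 lower (2.23%). When libraries were scaled to equal column totals, the median of all genes shifted by 0.235 on the log2 scale in the Mll1-KO course, 0.122 in the WT course and 0.113 in the course difference. The share of course-difference calls that were higher was then 64.7%, against 44.0% with the deposited scaling. Genes were sorted into classes by both courses, with a limit of 2-fold for the course and for the difference. Rises were smaller in Mll1-KO for 102 genes and larger for 253, and falls were smaller for 132 genes and larger for 149. At least 2-fold rises in Mll1-KO alone were found for 169 genes, and such falls for 62. In WT these genes were not called, changed by less than 2-fold in that direction, or went the other way. A gene with opposite courses could be counted among the smaller courses as well, as Pdx1 and Ly6a were. Just inside and outside the limit lay Sox8 (-1.01) and Hhip (-0.998) for smaller rises, and Tent5a (1.01) and P2rx4 (0.998) for larger rises. For falls these were Egln3 (1.00) and Higd1a (0.996) among the smaller and Aldh1l2 (-1.0) and Utf1 (-0.996) among the larger.

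**Figure D1:**
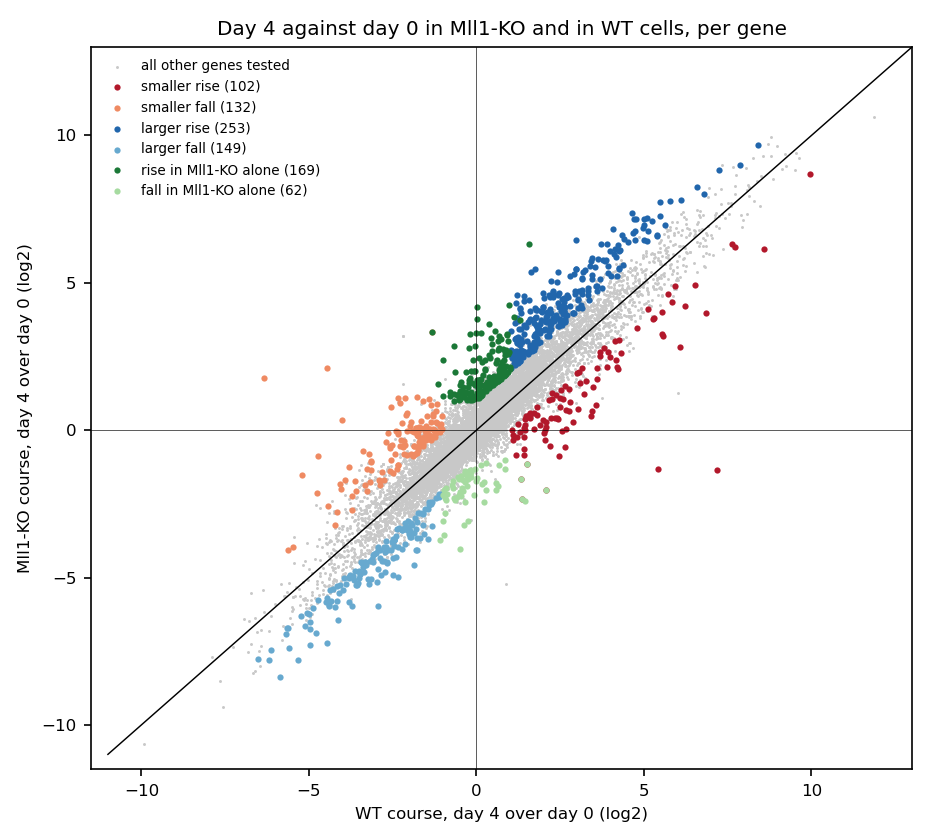
Change from day 0 to day 4 of each of 15114 genes, in WT (x axis) and Mll1-KO (y axis), both as log2 differences of normalized count + 1. Coloured points mark the classes of smaller and larger rises and falls and of changes past 2-fold in Mll1-KO alone. Most genes lie along the diagonal (slope 1.03), and the classes lie to its sides.

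Most retinoid carrier, enzyme and early target genes rose steeply in Mll1-KO, while receptor genes were divided. Rarb, the receptor gene that retinoic acid itself induces, and Cyp26a1, the enzyme that breaks retinoic acid down, were among the 10 largest rises of the Mll1-KO course. Both carry a direct repeat of the retinoid receptor motif close to their start, shown in capitals in the 150 bases before the RefSeq start (GRCm38.p6, 5′ to 3′ on the strand of the gene). The Rarb window is chr14:16575477-16575626, minus strand, and its match lies 52 to 37 bases before the start. The Cyp26a1 window is chr19:37697658-37697807, plus strand, and its match reads on the opposite strand, 32 to 17 bases before the start.

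Rarb: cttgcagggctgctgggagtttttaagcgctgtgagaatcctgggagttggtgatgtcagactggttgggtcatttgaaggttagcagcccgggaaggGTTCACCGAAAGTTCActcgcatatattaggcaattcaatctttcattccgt

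Cyp26a1: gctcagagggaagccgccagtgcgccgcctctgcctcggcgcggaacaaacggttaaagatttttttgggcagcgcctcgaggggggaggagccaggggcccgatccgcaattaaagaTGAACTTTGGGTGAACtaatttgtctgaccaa

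The motif searched was GTTCA, any 5 bases and then AGTTCA, on both strands. Its first copy lacks the leading A of its second copy. The base at that place is G in Rarb and, on the opposite strand, A in Cyp26a1, so the shortened string fits both genes. Of 32851 RefSeq promoter windows of this length, 4 held it (0.0122%), and of 46 retinoid and Hox list genes with a window, out of 72, Cyp26a1 and Rarb held it. Because the string fits the genes shown, these counts describe it and cannot test whether the list holds more matches than other genes. A match describes letters and shows no binding.

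Rarb had 2540, 2401 and 2485 normalized counts in day 4 Mll1-KO and 0, 4.88 and 3.37 in day 0 Mll1-KO, against 2673, 2550 and 2628 in day 4 WT and 6.13, 5.32 and 4.66 in day 0 WT. All day 4 libraries of both genotypes stood far above all day 0 libraries. The change was 9.71 ± 0.46 in Mll1-KO and 8.69 ± 0.46 in WT, and the difference of 1.02 ± 0.66 was not called (limma adjusted p = 0.24). Cyp26a1 had 7297, 7303 and 7175 normalized counts in day 4 Mll1-KO and 6.17, 15.6 and 11.8 in day 0 Mll1-KO, against 9619, 10066 and 10232 in day 4 WT and 25.3, 18.2 and 21.7 in day 0 WT. Its mutant libraries lay below those of WT on both days, without overlap. The courses were 9.30 ± 0.17 in Mll1-KO and 8.79 ± 0.17 in WT, with a difference of 0.51 ± 0.24 (limma adjusted p = 0.095). Nr2f2, an orphan nuclear receptor of the COUP-TF family, had 2136, 1922 and 1931 normalized counts in day 4 Mll1-KO and 2.06, 0 and 1.69 in day 0 Mll1-KO, against 1494, 1381 and 1490 in day 4 WT and 0.766, 1.52 and 6.99 in day 0 WT. At day 4 its mutant libraries were above those of WT, although neither that difference of 0.46 (limma adjusted p = 0.51) nor the course difference of 1.16 ± 0.64 (limma adjusted p = 0.17) was called. Scatter of the Nr2f2 day 0 libraries near 0 enters the SE of both.

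Of 6 retinoid receptor genes, 2 rose and 3 fell in both genotypes, with a median of -0.13 in Mll1-KO and -0.11 in WT. Their course difference was called higher for 0 and lower for 2, against 15% and 19% of all genes. Besides Rarb, Rxra rose by 1.12 ± 0.08 in Mll1-KO and by 0.89 ± 0.08 in WT, a difference that was not called (limma adjusted p = 0.11). Rarg, the main retinoid receptor of these cells before differentiation, fell by 2.78 ± 0.08 on the log2 scale in Mll1-KO and by 2.34 ± 0.08 in WT, with a difference of -0.45 ± 0.11 (limma adjusted p = 0.003). It started higher in the mutant, at 6688 ± 211 against 4377 ± 386 normalized counts in day 0 WT (SD, n = 3). Rxrg was low throughout. Its libraries held 1.41, 1.1 and 0 normalized counts in day 4 Mll1-KO and 39.1, 36.1 and 45.5 in day 0 Mll1-KO, against 6.1, 3.01 and 4.71 in day 4 WT and 20.7, 15.9 and 20.2 in day 0 WT. The mutant was thus lower than WT at day 4 and higher at day 0, with no overlap on either day. The ratio of day 0 to day 4 in Mll1-KO was 47.2, with a 95% counting interval of 12.8 to 394 from 129 and 2 reads, and the course difference was -2.72 ± 0.68 (limma adjusted p = 0.0026).

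Of 12 retinoid carrier, synthesis and breakdown genes tested, 11 rose and 1 fell in Mll1-KO, with a median of 4.97, against 10 and 1 with a median of 4.43 in WT. The median of all genes was 0.06 in the Mll1-KO course and -0.01 in the course difference. Course differences were called higher for 3 and lower for 1, against 15% and 19% of all genes, and higher for 1 alone with quantile scaling and without any 1 of these 5 libraries (day 4 Mll1-KO replicate 1 or 3, day 0 Mll1-KO replicate 3, day 4 WT replicate 1, day 0 WT replicate 3). Stra6, the membrane receptor that takes up retinol, had 679, 664 and 554 normalized counts in day 4 Mll1-KO and 10.3, 12.7 and 4.22 in day 0 Mll1-KO, against 602, 655 and 696 in day 4 WT and 21.4, 40.3 and 42.7 in day 0 WT. Day 4 libraries overlapped between genotypes, and day 0 libraries were lower in the mutant. Its course difference of 1.84 ± 0.61 (limma adjusted p = 0.02) lost its call without day 0 Mll1-KO replicate 3 or day 0 WT replicate 3. Rdh10, which makes retinaldehyde from retinol, rose by 3.88 ± 0.11 in Mll1-KO and 4.62 ± 0.11 in WT, a difference of -0.74 ± 0.15 (limma adjusted p = 0.00042). Crabp2, the carrier that brings retinoic acid to its receptors, differed by 0.47 ± 0.17 (limma adjusted p = 0.031), a call lost in 6 alternatives. Aldh1a2, which makes retinoic acid, rose by 3.27 ± 0.23 in Mll1-KO and 3.01 ± 0.23 in WT and was at 664 ± 22.3 normalized counts in day 4 Mll1-KO, against 414 ± 48.7 in day 4 WT (SD, n = 3; difference 0.68 ± 0.23, limma adjusted p = 0.026).

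Early retinoid targets outside the Hox clusters showed 13 rises and 1 fall among 14 genes in both genotypes, with a median of 5.95 in Mll1-KO and 5.46 in WT. Of the 14, 7 had a higher and 2 a lower course difference by limma, against 15% and 19% of all genes. The higher count was 4 without day 0 WT replicate 2, and the lower count was 0 with column totals and 1 without any of 7 single libraries of both genotypes. Tgm2, tissue transglutaminase, had 2073, 2313 and 2590 normalized counts in day 4 Mll1-KO and 180, 168 and 181 in day 0 Mll1-KO, against 2736, 2869 and 2737 in day 4 WT and 540, 579 and 560 in day 0 WT. The mutant was lower on both days, most at day 0. Its course difference was 1.40 ± 0.13 (limma adjusted p = 8.5e-09). Meis1 and Meis2, homeodomain partners of Hox proteins, differed by 0.91 ± 0.25 and 0.90 ± 0.23 (limma adjusted p = 0.0055 and 0.0029), with mutant levels lower at day 0 by limma, although the libraries overlapped. Stra8, a meiosis gene named for its retinoic acid response, was higher in the mutant on both days and rose a little less, by 2.13 ± 0.07 against 2.46 ± 0.07 in WT. That difference of -0.33 ± 0.10 (limma adjusted p = 0.0084) was not called with column totals or quantile scaling.

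The Hox genes, the best known targets of MLL1, rose in its absence. All 34 Hox genes that passed the low-value filter, of 39 listed, were called as rising in both genotypes, with a median of 5.74 in Mll1-KO and 5.33 in WT. Hoxa11, Hoxc11, Hoxc12, Hoxd10 and Hoxd12 were too low to test. The course difference was called higher for 5 and lower for 0 of the 34 with limma, with a median of 0.29, and at an unadjusted p under 0.05 for 6 and 0. These 5 are a share close to the 15% of all genes that were called higher. With 1 library left out the higher count ranged over 3 to 7, with 3 without day 4 Mll1-KO replicate 1, day 4 WT replicate 2 or day 0 WT replicate 3, and the lower count was at most 1. Higher and lower calls were 5 and 0 with edgeR and 7 and 0 with DESeq2. Hoxa4 and Hoxb4, anterior members of their clusters, kept this call in every alternative run.

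Hoxa4 had 291, 320 and 348 normalized counts in day 4 Mll1-KO and 2.06, 0.976 and 2.53 in day 0 Mll1-KO, against 223, 237 and 197 in day 4 WT and 6.89, 6.84 and 4.66 in day 0 WT. The mutant was above WT at day 4 and below it at day 0 in every library. The change of 6.85 ± 0.29 in Mll1-KO exceeded that of 4.96 ± 0.29 in WT by 1.89 ± 0.41 (limma adjusted p = 0.00073). Hoxb4 had 551, 573 and 588 normalized counts in day 4 Mll1-KO and 5.14, 5.86 and 5.90 in day 0 Mll1-KO, against 473, 478 and 507 in day 4 WT and 9.95, 18.2 and 12.4 in day 0 WT. It showed the same crossing, with a course difference of 1.33 ± 0.29 (limma adjusted p = 0.00078). Hoxa5, the Hox gene among the 10 largest rises, had 2210, 2267 and 2347 normalized counts in day 4 Mll1-KO and 2.06, 1.95 and 4.22 in day 0 Mll1-KO, against 1964, 1854 and 1836 in day 4 WT and 4.59, 3.04 and 4.66 in day 0 WT. Its courses of 9.30 ± 0.36 and 8.55 ± 0.36 did not differ beyond the spread between libraries (limma adjusted p = 0.27). The larger rises of Hoxd8 (1.40 ± 0.44), Hoxd1 (1.38 ± 0.47) and Hoxc5 (1.58 ± 0.56) were called but lost the call when single libraries were left out, for Hoxd8 without day 0 WT replicate 3 (1.14, limma adjusted p = 0.0573). Hoxd1 lost it in 5 alternatives and Hoxc5 in 10, edgeR and DESeq2 included.

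At day 4, levels of 1 Hox gene were called higher and of 3 lower in Mll1-KO than in WT, against 10.5% and 15.7% of all genes. The other tools called more of them, 8 higher and 5 lower with edgeR and 9 and 5 with DESeq2. The limma counts were 0 higher without any 1 day 4 library of either genotype, and 1 lower without day 4 Mll1-KO replicate 3 or day 4 WT replicate 2. By limma the higher one was Hoxc5 and the lower ones included Hoxa9 and Hoxa10. Hoxa9, an MLL1 target in blood progenitors, had 49.2, 44.1 and 46.3 normalized counts in day 4 Mll1-KO and 3.09, 0 and 1.69 in day 0 Mll1-KO, against 135, 123 and 105 in day 4 WT and 2.3, 0.759 and 0.777 in day 0 WT. Hoxa10 beside it had 22.5, 23.2 and 43.5 normalized counts in day 4 Mll1-KO and 10.3, 2.93 and 8.43 in day 0 Mll1-KO, against 113, 85.2 and 74.2 in day 4 WT and 15.3, 6.08 and 17.1 in day 0 WT. At day 4 the mutant and WT libraries of both genes did not overlap, by -1.35 ± 0.50 (limma adjusted p = 0.046) for Hoxa9 and -1.62 ± 0.38 (limma adjusted p = 0.0022) for Hoxa10. Their course differences of -1.38 ± 0.71 and -0.85 ± 0.54 were not called (limma adjusted p = 0.14 and 0.24).

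**Figure D2:**
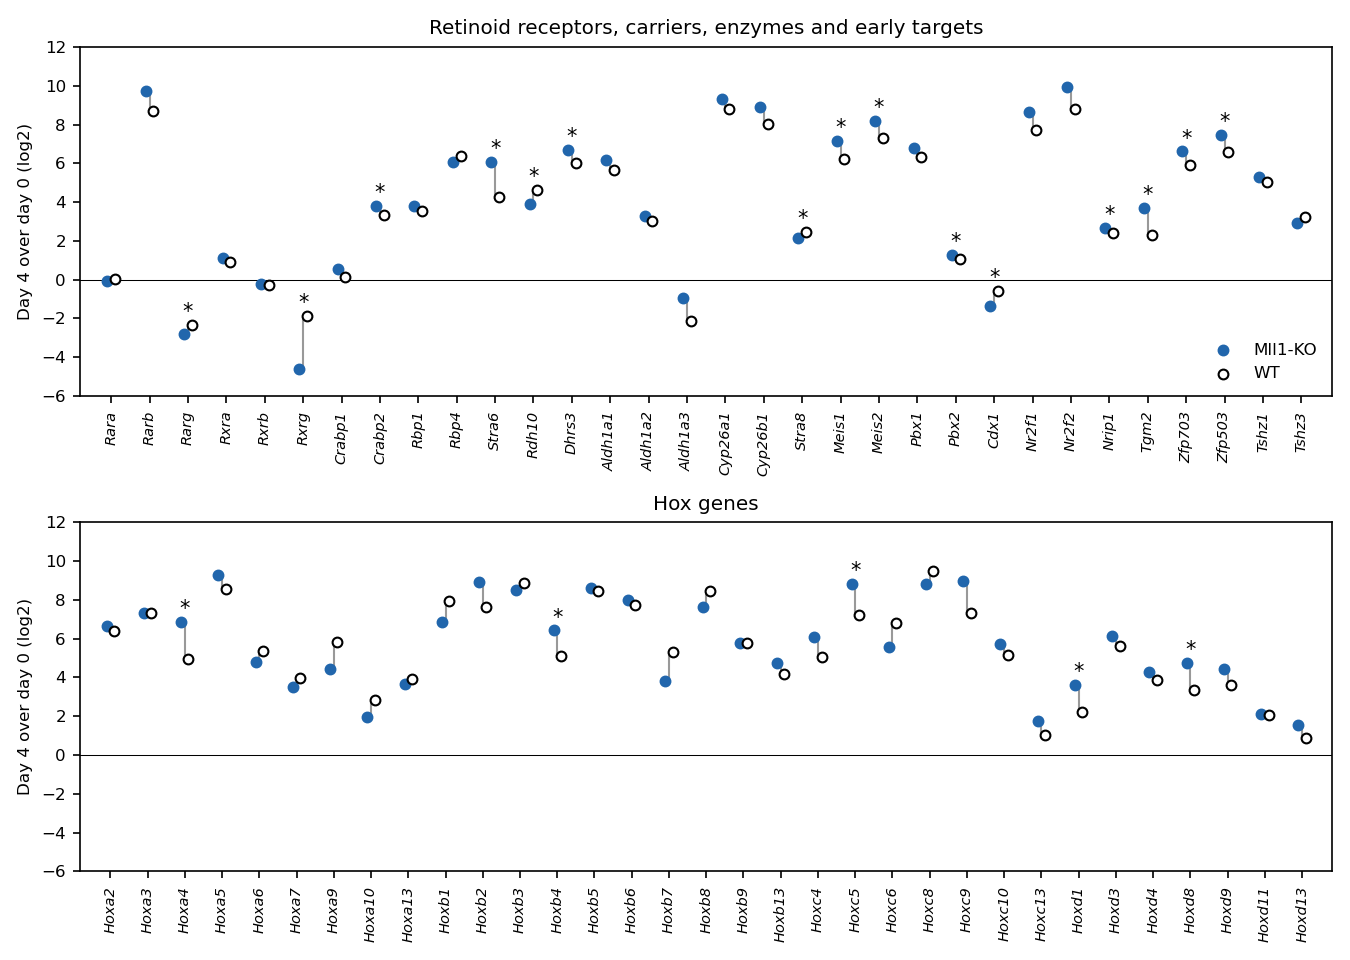
Change from day 0 to day 4 (log2 of normalized count + 1) of retinoid and Hox genes in Mll1-KO (filled points) and WT (open points). Grey lines join the values of a gene, and an asterisk marks a called course difference, as for Hoxa4 (1.89) and Hoxb4 (1.33).

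Pluripotency genes were shut down further in Mll1-KO than in WT. All 27 naive and core pluripotency genes fell in both genotypes (Tbx3 lost this call in Mll1-KO with column totals, quantile scaling and without replicate 3 of either day), with a median of -5.13 in Mll1-KO and -4.37 in WT. The course difference was called lower for 22 and higher for 1, against 19% and 15% of all genes, with a median of -1.05. It was lower for 21 and 22 with column totals and quantile scaling. At day 4, 24 were called lower and 1 higher in Mll1-KO than in WT, against 15.7% and 10.5% of all genes. At day 0, 10 were called higher and 5 lower, against 20.9% and 19.2% of all genes. Their summed level was 11009 to 12318 normalized counts in day 4 Mll1-KO and 196474 to 204549 in day 0 Mll1-KO, against 17777 to 20231 in day 4 WT and 200927 to 203801 in day 0 WT. In these bulk libraries, fewer cells of a type and less RNA per cell cannot be told apart.

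Pou5f1, the core pluripotency factor OCT4 (chr17:35506018-35510772, plus strand), had 314, 363 and 262 normalized counts in day 4 Mll1-KO and 33023, 30905 and 29601 in day 0 Mll1-KO, against 816, 1070 and 988 in day 4 WT and 33397, 33606 and 33167 in day 0 WT. Mutant levels at day 4 were all below those of WT and were 1.00% of their day 0 mean, against 2.87% in WT. Its course difference was -1.51 ± 0.12 (limma adjusted p = 2.4e-10). Sox2, its partner on DNA, had 120, 125 and 132 normalized counts in day 4 Mll1-KO and 7375, 7948 and 7910 in day 0 Mll1-KO, against 333, 357 and 396 in day 4 WT and 7567, 7482 and 7785 in day 0 WT. Day 0 levels overlapped, and day 4 levels were 1.62% of day 0 in Mll1-KO and 4.76% in WT, with a course difference of -1.54 ± 0.10 (limma adjusted p = 5.5e-12). Nanog had 331, 416 and 328 normalized counts in day 4 Mll1-KO and 11489, 12411 and 11790 in day 0 Mll1-KO, against 524, 915 and 780 in day 4 WT and 15544, 15267 and 15041 in day 0 WT. It was lower in the mutant on both days, with 3.01% left at day 4 against 4.84% in WT and a course difference of -0.65 ± 0.17 (limma adjusted p = 0.0039).

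The 1 gene of the list with a smaller fall was Socs3, a feedback inhibitor that LIF signalling induces. It had 563, 529 and 543 normalized counts in day 4 Mll1-KO and 2841, 2749 and 2530 in day 0 Mll1-KO, against 365, 373 and 361 in day 4 WT and 3372, 3680 and 3597 in day 0 WT. The mutant was lower at day 0 and higher at day 4, by a course difference of 0.96 ± 0.09 (limma adjusted p = 2.9e-09). Lin28a, an RNA-binding protein that blocks let-7 maturation, kept 37.1% of its day 0 level in Mll1-KO and 88.4% in WT. Tbx3, a T-box factor used again in several lineages, kept 85.5% in Mll1-KO and 83.6% in WT.

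Of 12 formative and primed pluripotency genes, 2 rose and 10 fell in both genotypes. The course difference was lower for 6 and not called for the other 6, against 19% of all genes lower. Pou3f1, the primed-state factor OCT6, had a course difference of -0.94 ± 0.20 (limma adjusted p = 0.00051). Fgf5, the growth factor that marks the primed state, was one of the risers, with 3.21 ± 0.45 in Mll1-KO and 4.29 ± 0.45 in WT, which did not differ significantly (limma adjusted p = 0.2).

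The other large rises of the Mll1-KO course were extracellular matrix and secreted proteins. Col3a1, a fibrillar collagen, had 6737, 6703 and 7485 normalized counts in day 4 Mll1-KO and 7.2, 1.95 and 2.53 in day 0 Mll1-KO, against 5397, 4899 and 4855 in day 4 WT and 0, 1.52 and 0 in day 0 WT. It rose by 10.63 ± 0.43 in Mll1-KO, the largest of all named rises, and its course difference of -1.23 ± 0.61 was not called (limma adjusted p = 0.12). Hapln1, a link protein that ties hyaluronan to proteoglycans, had 1059, 1027 and 996 normalized counts in day 4 Mll1-KO and 0, 0.976 and 0 in day 0 Mll1-KO, against 652, 456 and 576 in day 4 WT and 1.53, 0.759 and 0 in day 0 WT. The mutant ended above WT in every library, and the course difference was 1.28 ± 0.41 (limma adjusted p = 0.018), a call lost with edgeR, with DESeq2 and without day 4 WT replicate 2 or day 0 WT replicate 1. Ecm1, a secreted matrix glycoprotein, reached 29210 ± 1158 normalized counts in day 4 Mll1-KO, against 18052 ± 962 in day 4 WT (SD, n = 3), with courses of 9.37 ± 0.15 and 9.20 ± 0.15 that did not differ significantly (limma adjusted p = 0.59). Masp1, a protease of the lectin complement pathway, Svep1, a large adhesion protein, and Ccdc80, a secreted matrix protein, rose by 9.64, 9.40 and 9.23 on the log2 scale, each with 1 or 2 reads in day 0 Mll1-KO. Their course differences were not called.

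Among the 10 largest falls were genes of the stem cell state. Nr0b1, the orphan receptor DAX1 of the pluripotency network, fell by 7.80 ± 0.18 on the log2 scale in Mll1-KO and 6.18 ± 0.18 in WT, a difference of -1.62 ± 0.26 (limma adjusted p = 1.8e-05). Tcl1, a co-activator of AKT kinase, fell by 8.23 ± 0.48 in Mll1-KO and 6.68 ± 0.48 in WT (difference not called by limma, adjusted p = 0.077, but called by edgeR and DESeq2 and without day 4 Mll1-KO replicate 1 or 2). Nphs1, which encodes nephrin, and its neighbour on the opposite strand, the nephrin-like Kirrel2, fell by 8.50 ± 0.30 and 8.17 ± 0.49. Gtsf1l fell by 7.99 ± 0.48, and Olig2, a neural and motor neuron factor, by 7.78 ± 0.33 in Mll1-KO. Atp6v0c-ps2 and Eif3j1 also passed the rule, but the first is a pseudogene and the second has a near-identical copy, and how reads were split between copies is uncertain. Acsbg3 and Exoc3l are given below with the larger falls.

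Genes whose rise was smaller in Mll1-KO were led by lipid-carrying and serum proteins of the visceral endoderm, the embryonic tissue that secretes them into the yolk sac. Of the 102, 56 still rose significantly in Mll1-KO, 41 were not called and 5 fell. At day 4, 36 were called lower and 3 higher in Mll1-KO than in WT, against 15.7% and 10.5% of all genes. At day 0, 74 were already higher and 1 was lower, against 20.9% and 19.2% of all genes. For most of the class the smaller rise thus came with a higher start. These comparisons use the libraries that defined the class and describe it without testing it. The promoters of Afp, Apoa1 and Apob are shown because these 3 share a core forkhead letter string, the capitals, in the 150 bases before the RefSeq start (GRCm38.p6, strand of the gene). The Afp window is chr5:90490564-90490713, the Apoa1 window chr9:46228480-46228629 and the Apob window chr12:7977527-7977676, all on the plus strand.

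Afp: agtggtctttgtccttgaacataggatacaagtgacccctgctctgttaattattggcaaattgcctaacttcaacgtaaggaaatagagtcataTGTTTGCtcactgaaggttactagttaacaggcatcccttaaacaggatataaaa

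Apoa1: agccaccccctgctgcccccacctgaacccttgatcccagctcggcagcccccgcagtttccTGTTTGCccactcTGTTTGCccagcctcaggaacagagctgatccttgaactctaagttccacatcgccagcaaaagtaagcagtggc

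Apob: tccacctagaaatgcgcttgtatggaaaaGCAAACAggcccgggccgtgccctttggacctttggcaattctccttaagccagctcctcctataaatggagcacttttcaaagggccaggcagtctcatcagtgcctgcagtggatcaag

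The letters searched were TGTTTGC on both strands, and the search was chosen after the values of these genes were known. They lie 55 to 49 bases before the start of Afp, at 88 to 82 and 75 to 69 before that of Apoa1, and on the opposite strand at 121 to 115 before that of Apob. Of 32851 windows 800 held them (2.44%), and of 11 visceral endoderm list genes with a window, out of 15, these 3 did. Because the genes shown were known when the string was chosen, these counts cannot test whether the list holds more matches than other genes. A match describes letters and shows no binding.

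Apoa1, the main protein of high-density lipoprotein (chr9:46228580-46230466, plus strand), had 38.0, 55.2 and 46.3 normalized counts in day 4 Mll1-KO and 4.12, 5.86 and 7.59 in day 0 Mll1-KO, against 357, 437 and 449 in day 4 WT and 3.06, 7.59 and 5.44 in day 0 WT. Day 0 levels overlapped, and at day 4 every mutant library lay far below every WT library. It rose by 2.81 ± 0.53 in Mll1-KO and 6.09 ± 0.53 in WT, a difference of -3.28 ± 0.75 (limma adjusted p = 0.0012). Apob, the scaffold of low-density lipoprotein (chr12:7977648-8016835, plus strand), had 91.4, 87.2 and 67.3 normalized counts in day 4 Mll1-KO and 68.9, 51.7 and 54.8 in day 0 Mll1-KO, against 246, 311 and 269 in day 4 WT and 20.7, 20.5 and 36.5 in day 0 WT. Here the mutant days overlapped and its day 0 libraries were above those of WT. The Mll1-KO course of 0.48 ± 0.23 was not called (limma adjusted p = 0.052), although edgeR and DESeq2 called it, WT rose by 3.4 ± 0.23, and the difference was -2.93 ± 0.32 (limma adjusted p = 6.9e-08). Afp, alpha-fetoprotein of yolk sac and fetal liver (chr5:90490737-90508907, plus strand), had 12.7, 9.93 and 25.2 normalized counts in day 4 Mll1-KO, against 109, 115 and 120 in day 4 WT, and 0 in all day 0 libraries of both genotypes. It was at least 5.6-fold higher at day 4 in Mll1-KO and at least 49.8-fold higher in WT, from a floor of 3 counts per library. Its day 4 level was lower in the mutant by -2.87 ± 0.36 (limma adjusted p = 9.5e-07). Since day 0 was 0 in both, the course difference of -2.87 ± 0.51 (limma adjusted p = 8.3e-05) restates the day 4 difference, and edgeR and DESeq2 did not call it (adjusted p = 1 and 0.143).

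Visceral endoderm genes did not move as 1 block. Of 15, 8 rose and 5 fell in Mll1-KO with a median of 2.81, against 10 and 5 with a median of 2.28 in WT, and the course difference was higher for 3 and lower for 5, against 15% and 19% of all genes. These counts were 6 and 5 with column totals and 5 and 4 with edgeR, so their balance depends on the scaling and the tool. At day 4, 10 of the 15 were lower in Mll1-KO than in WT and the other 5 were not called, against 15.7% of all genes lower. There edgeR and DESeq2 each called 11 lower. Their summed level was 9123 to 10292 normalized counts in day 4 Mll1-KO and 1952 to 2140 in day 0 Mll1-KO, against 22870 to 24072 in day 4 WT and 6490 to 7015 in day 0 WT. Cubn, Dab2 and Lrp2, whose levels are given below, made up most of these sums. Ttr, the thyroid hormone carrier transthyretin, had 159, 161 and 158 normalized counts in day 4 Mll1-KO and 0 in day 0 Mll1-KO, against 291, 345 and 346 in day 4 WT and at most 0.777 in day 0 WT. Those day 4 levels did not overlap (-1.03 ± 0.27, limma adjusted p = 0.005), while the course difference of -0.75 ± 0.38 was not called (limma adjusted p = 0.13). Rbp4, the retinol carrier of serum, was also lower at day 4 (-1.11 ± 0.33, limma adjusted p = 0.013) without a called course difference (limma adjusted p = 0.64). Lrp2, the endocytic receptor megalin, had 1006, 991 and 1043 normalized counts in day 4 Mll1-KO and 1075, 949 and 996 in day 0 Mll1-KO, against 2116, 2135 and 2201 in day 4 WT and 1577, 1426 and 1512 in day 0 WT. Mutant levels were lower on both days, with a course of 0.01 ± 0.07 against 0.52 ± 0.07 in WT and a difference of -0.50 ± 0.10 (limma adjusted p = 0.00029). Apoa2, another lipoprotein component, fell in both genotypes, by 3.92 ± 0.27 in Mll1-KO and 2.47 ± 0.27 in WT.

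Outside the endoderm, Cdx2, the caudal-type factor of trophectoderm and the posterior embryo, had 30.9, 43.0 and 44.9 normalized counts in day 4 Mll1-KO and 35, 29.3 and 23.6 in day 0 Mll1-KO, against 68.1, 77.2 and 81.3 in day 4 WT and 16.8, 11.4 and 12.4 in day 0 WT. The mutant days overlapped, while WT days stood apart. Its courses were 0.42 ± 0.24 in Mll1-KO (limma adjusted p = 0.11) and 2.41 ± 0.24 in WT, a difference of -1.99 ± 0.34 (limma adjusted p = 5.4e-05). Gpr50, an orphan receptor of the melatonin receptor family, had 391, 428 and 414 normalized counts in day 4 Mll1-KO and 7.2, 2.93 and 5.06 in day 0 Mll1-KO, against 876, 868 and 973 in day 4 WT and 2.3, 3.04 and 0 in day 0 WT. Mutant levels were lower at day 4, and the course difference was -2.43 ± 0.57 (limma adjusted p = 0.0016). Wt1, the Wilms tumour factor of mesothelium and kidney, had 1412, 1374 and 1457 normalized counts in day 4 Mll1-KO and 241, 209 and 218 in day 0 Mll1-KO, against 960, 914 and 852 in day 4 WT and 65.8, 53.2 and 59.0 in day 0 WT. It was higher in the mutant on both days, and its smaller rise (-1.25 ± 0.19, limma adjusted p = 1.3e-05) came with the higher start. The smooth muscle genes Acta2 and Tagln did the same, with course differences of -1.31 ± 0.22 and -0.96 ± 0.17 (limma adjusted p = 4.8e-05 and 5.1e-05) and day 4 levels that overlapped between genotypes. Csn3, a milk casein, belonged to this pattern as well (-2.38 ± 0.66, limma adjusted p = 0.0062). Zfp781, one of a large zinc finger family, varied widely between libraries and lost its call in 6 alternatives.

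H19, an imprinted long noncoding RNA expressed from the maternal allele (chr7:142575529-142578143, minus strand), was far lower in the mutant. It had 541, 543 and 558 normalized counts in day 4 Mll1-KO and 39.1, 41.0 and 35.4 in day 0 Mll1-KO, against 10272, 11902 and 11390 in day 4 WT and 295, 292 and 263 in day 0 WT. Mutant libraries were far below those of WT on both days, by -4.35 ± 0.08 at day 4 and -2.85 ± 0.08 at day 0. It still rose by 3.80 ± 0.08 in Mll1-KO, against 5.30 ± 0.08 in WT (difference -1.50 ± 0.12, limma adjusted p = 3e-10). Its neighbour Igf2, the growth factor expressed from the other allele, had 33721, 34866 and 35055 normalized counts in day 4 Mll1-KO and 232, 238 and 167 in day 0 Mll1-KO, against 24578, 22831 and 24034 in day 4 WT and 190, 149 and 164 in day 0 WT. Igf2 was higher in day 4 Mll1-KO than in day 4 WT by 0.54 ± 0.11, and its courses of 7.36 ± 0.11 and 7.15 ± 0.11 did not differ significantly (limma adjusted p = 0.31). Of the 21 imprinted genes tested, the course difference was higher for 2 and lower for 6, against 15% and 19% of all genes. The higher count was 4 with edgeR, 5 with DESeq2, and 1 without day 4 Mll1-KO replicate 3 or day 4 WT replicate 2.

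**Figure D3:**
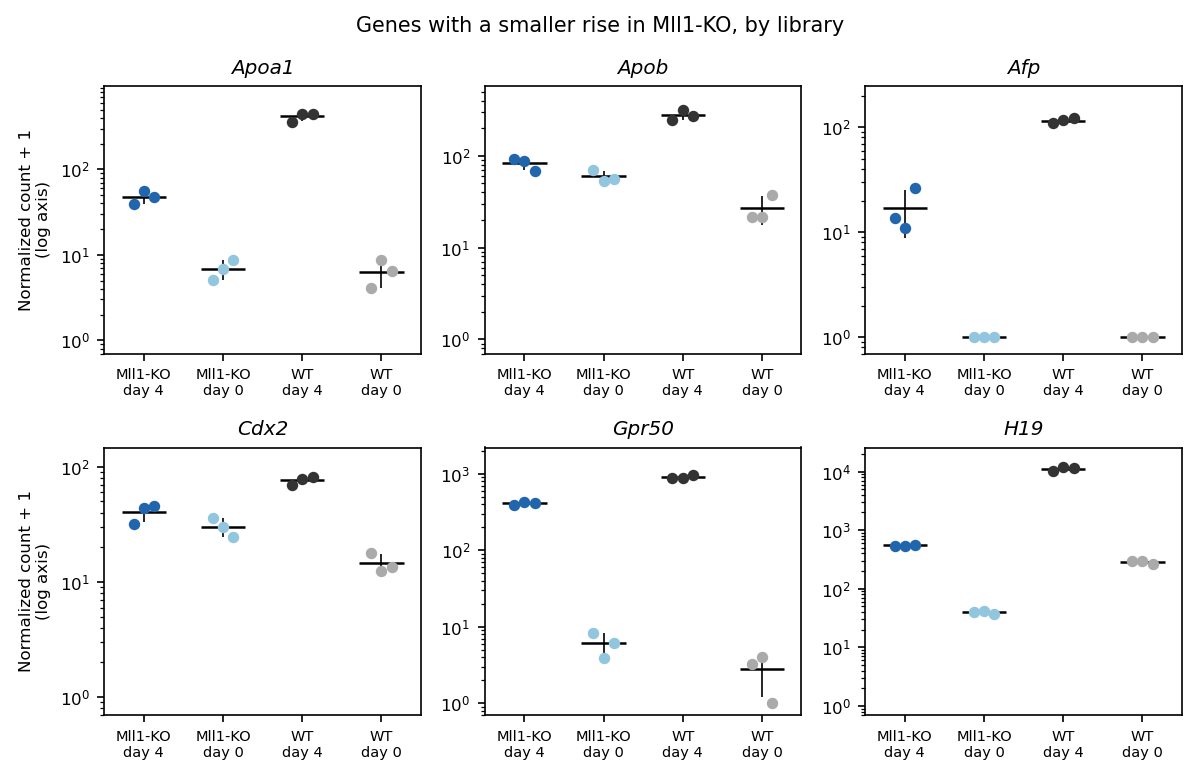
Normalized count + 1 (log axis) of 6 genes with smaller rises, per library, in day 4 Mll1-KO, day 0 Mll1-KO, day 4 WT and day 0 WT. Horizontal bars are means and vertical lines SD (n = 3); Apoa1 averaged 46.5 in day 4 Mll1-KO and 414 in day 4 WT.

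Endoderm regulators rose more in Mll1-KO than in WT, with lower levels there at day 0. Of 10 endoderm transcription factors, 9 rose in Mll1-KO with a median of 4.26, against all 10 with a median of 2.03 in WT. The course difference was higher for 8 and lower for 1, against 15% and 19% of all genes, with a median of 1.90. It was also higher for 8 with column totals and quantile scaling. All 10 were lower in Mll1-KO at day 0, against 19.2% of all genes. At day 4, 4 were lower and the other 6 were not called, against 15.7% of all genes lower. There edgeR and DESeq2 each called 8 lower, and limma called 7 without day 0 Mll1-KO replicate 1 or 2. Their sum was 5866 to 6064 normalized counts in day 4 Mll1-KO and 423 to 464 in day 0 Mll1-KO, against 9030 to 9545 in day 4 WT and 1971 to 2341 in day 0 WT.

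Gata6, the factor that starts the primitive endoderm programme, had 1419, 1421 and 1528 normalized counts in day 4 Mll1-KO and 64.8, 71.3 and 52.3 in day 0 Mll1-KO, against 1613, 1575 and 1610 in day 4 WT and 399, 329 and 325 in day 0 WT. Mutant libraries were below WT on both days, widely at day 0 and narrowly at day 4. Its course difference was 2.33 ± 0.20 (limma adjusted p = 1.3e-09), with -2.47 ± 0.14 at day 0 and -0.14 ± 0.14 at day 4 (limma adjusted p = 0.53). Sox17, an endoderm SOX factor, had 322, 327 and 303 normalized counts in day 4 Mll1-KO and 13.4, 22.5 and 22.8 in day 0 Mll1-KO, against 417, 394 and 450 in day 4 WT and 186, 153 and 167 in day 0 WT. It showed the same layout, with a course difference of 2.68 ± 0.26 (limma adjusted p = 7.9e-09). Hnf4a, a nuclear receptor that drives visceral endoderm and liver genes, had 68.9, 76.1 and 74.3 normalized counts in day 4 Mll1-KO and 4.12, 4.88 and 0 in day 0 Mll1-KO, against 127, 168 and 143 in day 4 WT and 73.5, 53.2 and 62.9 in day 0 WT. Mutant day 4 levels overlapped the day 0 levels of WT. The course difference of 3.38 ± 0.53 (limma adjusted p = 1.7e-05) stood beside a day 4 difference of -0.98 ± 0.38 that was not called (limma adjusted p = 0.056). Gata4 and Foxa2 followed with course differences of 1.68 ± 0.09 and 2.11 ± 0.39 (limma adjusted p = 1.6e-13 and 0.00013). Foxa1, a forkhead factor of the same tissue, had courses of 5.24 ± 0.18 and 5.19 ± 0.18, whose difference was not called (limma adjusted p = 0.91). Sox7 was the exception with a smaller course (-0.44 ± 0.17, limma adjusted p = 0.044), a call lost in 13 alternatives.

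Most basement membrane genes of endoderm were also lower in Mll1-KO at day 0, rose more, and were still below WT at day 4. All 12 parietal endoderm and basement membrane genes rose in both genotypes, with a median of 3.57 in Mll1-KO and 2.40 in WT. Course differences were higher for 9 and lower for 2, as they were with column totals and quantile scaling, against 15% and 19% of all genes. At day 0, 10 were lower and 1 was higher in Mll1-KO, against 19.2% and 20.9% of all genes. At day 4, 9 were lower and the other 3 not called, against 15.7% of all genes lower. Col4a1, a collagen of all basement membranes, had 50708, 51534 and 48347 normalized counts in day 4 Mll1-KO and 1213, 1054 and 992 in day 0 Mll1-KO, against 94929, 98354 and 96653 in day 4 WT and 8494, 8431 and 8233 in day 0 WT. The mutant had clearly less on both days. It rose by 5.53 ± 0.05 in Mll1-KO and 3.53 ± 0.05 in WT (difference 2.01 ± 0.07, limma adjusted p = 4.1e-17). Its head-to-head neighbour Col4a2 differed by 2.20 ± 0.06, Srgn, a proteoglycan core protein of parietal endoderm, by 2.42 ± 0.20, and Plat, tissue plasminogen activator, by 1.69 ± 0.18. Lamc1, the laminin gamma chain, had the smaller course, with -0.42 ± 0.06.

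A pair of endocytosis genes of visceral endoderm also rose more, unlike Lrp2 above. Dab2, an adaptor for endocytosis, had 2622, 2406 and 2141 normalized counts in day 4 Mll1-KO and 104, 113 and 119 in day 0 Mll1-KO, against 4518, 4592 and 4550 in day 4 WT and 1722, 1477 and 1389 in day 0 WT. Its course difference was 2.82 ± 0.13 (limma adjusted p = 7.8e-15). Cubn, the receptor cubilin that Dab2 serves, had 4743, 4898 and 4145 normalized counts in day 4 Mll1-KO and 201, 206 and 187 in day 0 Mll1-KO, against 12691, 13174 and 12562 in day 4 WT and 2666, 2563 and 2663 in day 0 WT. Both genes were lower in every mutant library than in every WT library of the same day. The course difference of Cubn was 2.24 ± 0.08 (limma adjusted p = 4.1e-17).

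**Figure D4:**
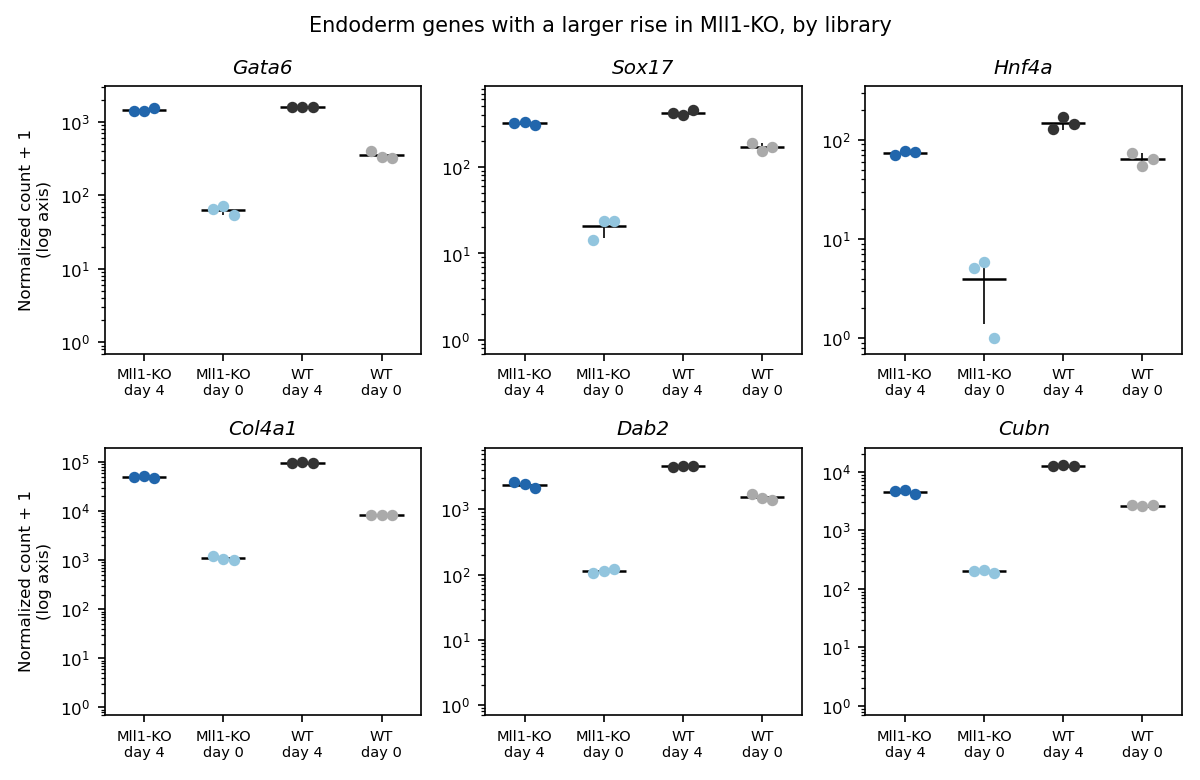
Normalized count + 1 (log axis) of Gata6, Sox17, Hnf4a, Col4a1, Dab2 and Cubn per library, in day 4 Mll1-KO, day 0 Mll1-KO, day 4 WT and day 0 WT. Horizontal bars are means and vertical lines SD (n = 3); Gata6 averaged 62.8 in day 0 Mll1-KO and 351 in day 0 WT.

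Most of the 253 larger rises began lower in Mll1-KO, which describes the libraries that defined them. At day 0, 216 were lower in Mll1-KO and the other 37 not called, against 19.2% of all genes lower. At day 4, 61 were higher, 34 lower and 158 not called, against 10.5% higher and 15.7% lower of all genes. With quantile scaling the first count was 142. Bmper, a secreted regulator of BMP signals, had 346, 331 and 416 normalized counts in day 4 Mll1-KO and 8.23, 5.86 and 7.59 in day 0 Mll1-KO, against 373, 393 and 323 in day 4 WT and 103, 124 and 96.3 in day 0 WT. Day 4 libraries overlapped between genotypes, and the course difference of 3.73 ± 0.33 (limma adjusted p = 2.1e-09) was matched by -3.73 ± 0.23 at day 0. Pth1r, the parathyroid hormone receptor, known for its part in parietal endoderm formation, had 2519, 2641 and 3002 normalized counts in day 4 Mll1-KO and 25.7, 39.0 and 27.0 in day 0 Mll1-KO, against 2750, 2766 and 2971 in day 4 WT and 361, 384 and 329 in day 0 WT. It converged in the same way (3.47 ± 0.16, limma adjusted p = 2.8e-15). Igf1, insulin-like growth factor 1, and Aqp8, a water channel, differed by 3.73 ± 0.50 and 3.15 ± 0.30 (limma adjusted p = 1.6e-06 and 6.2e-09). Cacna1h, a T-type calcium channel, overshot: it had 480, 410 and 464 normalized counts in day 4 Mll1-KO and 18.5, 19.5 and 24.5 in day 0 Mll1-KO, against 230, 244 and 264 in day 4 WT and 75.8, 102 and 97.9 in day 0 WT. Its mutant libraries crossed those of WT, with 0.87 ± 0.16 at day 4 and a course difference of 2.96 ± 0.23 (limma adjusted p = 2.6e-10).

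Of the 149 larger falls, 115 were lower in Mll1-KO at day 4 and the other 34 not called, against 15.7% of all genes lower. At day 0, 75 were higher and 1 was lower, against 20.9% and 19.2% of all genes. This too describes the libraries that defined the class. Ttn, the giant muscle protein titin, had 9.85, 11.0 and 2.80 normalized counts in day 4 Mll1-KO and 463, 367 and 699 in day 0 Mll1-KO, against 17.3, 28.1 and 23.6 in day 4 WT and 151, 161 and 238 in day 0 WT. The mutant was higher at day 0 and lower at day 4, with a course difference of -3.02 ± 0.45 (limma adjusted p = 6.9e-06). Mir124a-1hg, the host transcript of the neuronal microRNA miR-124, had 0 reads in day 4 Mll1-KO and 143, 126 and 180 normalized counts in day 0 Mll1-KO, against 2.03, 1.00 and 2.36 in day 4 WT and 52.8, 53.9 and 70.7 in day 0 WT. Day 4 was thus at least 38.2-fold lower than day 0 in Mll1-KO, with a course difference of -2.77 ± 0.62 (limma adjusted p = 0.00093). Septin1, a filament-forming GTPase, had 8.44, 30.9 and 19.6 normalized counts in day 4 Mll1-KO and 2937, 2930 and 2778 in day 0 Mll1-KO, against 28.5, 37.1 and 45.9 in day 4 WT and 1172, 1156 and 1203 in day 0 WT. It differed by -2.32 ± 0.36 (limma adjusted p = 1.2e-05). Ina, the neuronal filament protein alpha-internexin, started at 1594 ± 111 normalized counts in day 0 Mll1-KO, against 456 ± 23.2 in day 0 WT (SD, n = 3), and differed by -2.05 ± 0.17 (limma adjusted p = 9.4e-10). Acsbg3, of the acyl-CoA synthetases, Exoc3l, related to an exocyst subunit, and Serpina3m, of a protease inhibitor cluster with close paralogs, differed by -2.49 ± 0.58, -2.45 ± 0.44 and -2.65 ± 0.64 (limma adjusted p = 0.0014, 7.6e-05 and 0.002).

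Smaller falls were mostly genes with high levels in day 0 WT. Of these 132, 102 were lower in Mll1-KO at day 0 and the other 30 not called, against 19.2% of all genes lower. At day 4, 33 were higher, 7 lower and 92 not called, against 10.5% higher and 15.7% lower of all genes. Such counts use the libraries that defined the class and describe it without testing it. The Mll1-KO course was still a called fall for 52, was not called for 74 and was a called rise for 6. Ndufa4l2, a mitochondrial protein induced by hypoxia, had 9.85, 15.4 and 9.82 normalized counts in day 4 Mll1-KO and 39.1, 26.4 and 40.5 in day 0 Mll1-KO, against 8.13, 14.0 and 15.3 in day 4 WT and 368, 504 and 610 in day 0 WT. Day 0 WT was far above the other groups, and its course difference was 3.69 ± 0.38 (limma adjusted p = 2.4e-08). Stc1, a calcium-regulating hormone, and A2m, a protease inhibitor of plasma, had the same layout, with 4.35 ± 0.85 and 3.85 ± 0.48. H2-Ab1, a class II histocompatibility chain, had 28.1, 37.5 and 30.8 normalized counts in day 4 Mll1-KO and 15.4, 19.5 and 14.3 in day 0 Mll1-KO, against 27.4, 22.1 and 16.5 in day 4 WT and 97.2, 128 and 104 in day 0 WT. It rose in Mll1-KO (0.93 ± 0.28, limma adjusted p = 0.0032), a call lost with quantile scaling, and fell in WT (-2.28 ± 0.28). Prmt8, an arginine methyltransferase, differed by 2.68 ± 0.36 (limma adjusted p = 1.8e-06). Tmem254c, with near-identical copies, varied from 0 to 248 between libraries, and its difference of 6.56 ± 2.26 was lost in 7 alternatives.

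Of the 169 genes that rose past 2-fold in Mll1-KO alone, 146 were lower in Mll1-KO at day 0 and the other 23 not called. Of all genes 19.2% were lower at day 0. At day 4, 45 were higher, 10 lower and 114 not called, against 10.5% higher and 15.7% lower of all genes. Both counts use the libraries that defined the class and describe it without testing it. Pygl, liver glycogen phosphorylase, had 97.0, 80.6 and 75.7 normalized counts in day 4 Mll1-KO and 7.20, 6.83 and 4.22 in day 0 Mll1-KO, against 89.4, 84.2 and 97.8 in day 4 WT and 60.5, 59.2 and 93.2 in day 0 WT. Day 0 Mll1-KO alone stood low, with a course difference of 3.24 ± 0.43 (limma adjusted p = 1.6e-06). Ppp1r3c, which targets a phosphatase to glycogen, and Adm, the vasodilator peptide adrenomedullin, a known hypoxia target, differed by 3.53 ± 0.75 and 2.99 ± 0.66. Cdc42ep2, an effector of the GTPase CDC42, and Kbtbd11, a BTB and kelch domain protein, differed by 3.38 ± 0.42 and 3.32 ± 0.50. Cers1, a ceramide synthase whose locus overlaps Gdf1, had 85.8, 51.9 and 112 normalized counts in day 4 Mll1-KO and 0 in day 0 Mll1-KO, against 12.2, 83.2 and 56.5 in day 4 WT and 52.1, 45.6 and 0 in day 0 WT. Its day 0 WT libraries disagree with each other, and reads of the shared locus may be split between the genes.

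Falls past 2-fold in Mll1-KO alone numbered 62, and some of these genes also fell in WT by less, as the levels of Sall3 below show. At day 0, 34 were higher and 2 lower in Mll1-KO, against 20.9% and 19.2% of all genes. At day 4, 36 were lower and the other 26 not called, against 15.7% of all genes lower. These counts use the libraries that defined the class. Slc23a1, a vitamin C transporter, had 11.3, 9.93 and 11.2 normalized counts in day 4 Mll1-KO and 115, 102 and 111 in day 0 Mll1-KO, against 19.3, 21.1 and 18.9 in day 4 WT and 27.6, 25.1 and 25.6 in day 0 WT. The mutant began far above WT and ended below it, with a course difference of -2.84 ± 0.33 (limma adjusted p = 2.3e-07). Sall3, a zinc finger factor of the Spalt family, had 47.8, 50.8 and 54.7 normalized counts in day 4 Mll1-KO and 397, 380 and 324 in day 0 Mll1-KO, against 66.1, 71.2 and 88.4 in day 4 WT and 146, 144 and 138 in day 0 WT. It crossed in the same way (-1.89 ± 0.18, limma adjusted p = 4.6e-09). Pla1a, a phospholipase of phosphatidylserine, and Irak3, a brake on Toll-like receptor signals, differed by -2.0 ± 0.27 and -1.69 ± 0.28, and Ccdc116 by -1.71 ± 0.54. Pkhd1, the kidney protein fibrocystin, differed by -1.87 ± 0.60, a call lost without day 0 WT replicate 3 (limma adjusted p = 0.0614).

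Genes of the MLL/COMPASS family had lower courses in the mutant for most members. Of 16, 2 rose and 13 fell in Mll1-KO with a median of -0.58, against 5 and 9 with a median of -0.30 in WT. The course difference was lower for 11 and higher for 0 by limma (13 and 0 at an unadjusted p under 0.05), against 19% and 15% of all genes. It was lower for 10 with edgeR and 11 with DESeq2, and lower for 6 and 5 with column totals and quantile scaling. Setd1b, a catalytic subunit of another COMPASS complex, had 1058, 1076 and 1108 normalized counts in day 4 Mll1-KO and 1236, 1326 and 1374 in day 0 Mll1-KO, against 1085, 1030 and 992 in day 4 WT and 559, 573 and 490 in day 0 WT. Day 0 WT was the low group, and the gene fell in Mll1-KO (-0.28 ± 0.08) while it rose in WT (0.94 ± 0.08), a difference of -1.22 ± 0.11 (limma adjusted p = 2.2e-09). With column totals its fall in Mll1-KO was not called. Kmt2c, the enhancer methyltransferase MLL3, had 1558, 1546 and 1519 normalized counts in day 4 Mll1-KO and 2038, 1860 and 2213 in day 0 Mll1-KO, against 2351, 2276 and 2227 in day 4 WT and 1513, 1429 and 1438 in day 0 WT. Its direction was opposite in the genotypes, with a difference of -1.04 ± 0.08 (limma adjusted p = 1.9e-10). Kmt2b, the closest relative of MLL1, fell by 0.56 ± 0.06 on the log2 scale in Mll1-KO and 0.33 ± 0.06 in WT (difference -0.23 ± 0.09, limma adjusted p = 0.049, a call lost in 21 alternatives), with day 4 levels of 2285 ± 97.2 and 2269 ± 57.4 normalized counts (SD, n = 3).

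Lists of other lineages and of chromatin and cell cycle genes are given by their counts, beside course differences called higher for 15% and lower for 19% of all genes. Of 23 mesoderm and heart genes tested, 18 rose and 3 fell in Mll1-KO, and the course difference was higher for 3 and lower for 3. T and Mesp1, which start mesoderm formation, were below the filter. Neural genes were divided, with 10 of 27 rising and 12 falling in Mll1-KO and course differences higher for 4 and lower for 6, and their median of -0.15 turned to 0.08 with column totals. Fibroblast and matrix genes rose for 16 of 17 and differed upward for 3 and downward for 2. For neural crest genes, 6 of 9 rose and 1 differed, upward (0 with quantile scaling and without any of 5 single libraries). In the trophectoderm list, 7 of 10 rose, and 2 differed upward and 2 downward. Polycomb and DNA methylation genes fell for 14 of 17 in Mll1-KO, with course differences lower for 11 and higher for 1. They include Dnmt3l, a cofactor of DNA methylation in stem cells (-1.46 ± 0.13), and Epop, a Polycomb partner in stem cells (-1.19 ± 0.10). Proliferation genes fell for 20 of 24 and differed downward for 13 and upward for 4, with 7 downward with column totals and 6 with quantile scaling. Among them Cdkn1a, the cell cycle inhibitor p21, rose by 1.98 ± 0.06 in Mll1-KO and 1.21 ± 0.06 in WT (difference 0.77 ± 0.09, limma adjusted p = 9.5e-08), while Mki67, the proliferation antigen Ki-67, fell by 0.42 ± 0.05 in Mll1-KO and had -0.01 ± 0.05 in WT (difference -0.41 ± 0.08, limma adjusted p = 0.00015). With quantile scaling the Mll1-KO course of Mki67 was -0.049 and not called (limma adjusted p = 0.45).

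Glycolysis and hypoxia genes fell less in Mll1-KO than in WT, for 15 of 23 with 2 the other way, beside the high day 0 WT sums given above. Of all genes 15% differed upward and 19% downward. At day 0, 21 of the 23 were lower in Mll1-KO and the other 2 not called, while edgeR and DESeq2 each called 22 lower. At day 4, 14 were lower and 0 higher, against 15.7% and 10.5% of all genes. The list then summed to 139388 to 143577 normalized counts in Mll1-KO and 165251 to 182715 in WT. Hk1, the housekeeping hexokinase, rose in Mll1-KO (0.37 ± 0.07) and fell in WT (-0.70 ± 0.07), a difference of 1.07 ± 0.10 (limma adjusted p = 5e-09). Germline genes had 3 differences upward and 4 downward among 15. Of 11 genes of the 2-cell-like state, the course difference was called for 0 with limma, edgeR and DESeq2, and for 0 at an unadjusted p under 0.05. Their levels differed all the same, with 6 lower in Mll1-KO at day 0 and 9 at day 4, against 19.2% and 15.7% of all genes by limma (4 at day 4 without day 4 WT replicate 2).

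The course differences were then set beside those of a second pair of genotypes that shares no library with them. This is the double-KO course minus the Mll2-KO course, both drug-treated and without MLL2. Where the pairs differ, drug and loss of MLL2 cannot be told apart. A trait of the edited Mll1-KO clone could be shared by both pairs, which cannot be told apart from the labels. That contrast was called for 5814 genes (38.5%), 2835 higher (18.8%) and 2979 lower (19.7%), and the share of its calls that were higher was 48.8%, or 63.6% with column totals. Of the 253 larger rises, 163 (64.4%) were called higher and 1 lower, against 28.9% and 9.24% of all genes that rose at least 2-fold in WT. Of the 149 larger falls, 102 (68.5%) were called lower and 3 higher, against 28.9% and 11% of genes falling at least 2-fold in WT. Of the 102 smaller rises 34 (33.3%) were called lower and 3 higher, and of the 132 smaller falls 54 (40.9%) were called higher and 6 lower. Among rises and falls past 2-fold in Mll1-KO alone, 91 of 169 (53.8%) and 34 of 62 (54.8%) were called in the same direction.

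Endoderm factors, basement membrane genes and core pluripotency genes differed in the same direction in the second pair. Visceral endoderm genes were called higher for 4 and lower for 3 of 15 there, beside 18.8% and 19.7% of all genes. In Mll1-KO minus WT these counts were 3 and 5, and the medians were alike, at -0.14 in the second pair and -0.13 in Mll1-KO minus WT. Counts of other lists differed between the pairs. Germline genes were called higher for 9 and lower for 1, against 3 and 4, and genes of the 2-cell-like state for 7 and 0 with a median of 1.68, against 0 and 0. The double-KO minus Mll2-KO course difference was 1.88 ± 0.20 for Gata6, 2.24 ± 0.26 for Sox17, 2.48 ± 0.07 for Col4a1, 2.72 ± 0.13 for Dab2 and 2.41 ± 0.08 for Cubn. For Bmper and Pth1r it was 3.83 ± 0.33 and 2.79 ± 0.16. Pou5f1 and Sox2 had -1.26 ± 0.12 and -1.36 ± 0.10 (limma adjusted p = 3.8e-09 and 4.5e-11), whereas Nanog had -0.16 ± 0.17 (limma adjusted p = 0.5). Of the 27 naive and core genes 17 were lower and 4 higher, and of the 10 endoderm factors 8 were higher. Hoxa4 and Hoxb4 had 2.50 ± 0.41 and 1.88 ± 0.29 (limma adjusted p = 2.4e-05 and 1e-05), and of the 34 Hox genes 9 were higher and 2 lower. Tgm2 had 2.07 ± 0.13 and Socs3 0.85 ± 0.09.

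Among the smaller rises, Apob (-1.60 ± 0.32), Afp (-2.01 ± 0.51), Cdx2 (-1.16 ± 0.34) and Wt1 (-1.96 ± 0.19) were called in the same direction. Apoa1 had -1.40 ± 0.75 and Gpr50 -0.97 ± 0.57, which were not called (limma adjusted p = 0.15 and 0.19). H19 went the other way, with 0.57 ± 0.12 (limma adjusted p = 0.00042). Its levels were nonetheless far lower in the double-KO on both days, at 719 ± 43.0 normalized counts in day 4 double-KO and 7.69 ± 0.759 in day 0 double-KO, against 8553 ± 482 in day 4 Mll2-KO and 152 ± 12.9 in day 0 Mll2-KO (SD, n = 3). Acta2 and Tagln had 0.07 ± 0.22 and -0.02 ± 0.17, neither called. Among the smaller falls, the second pair gave Stc1 (-0.68 ± 0.85), A2m (0.72 ± 0.48), Ndufa4l2 (-0.04 ± 0.38) and H2-Ab1 (0.47 ± 0.39), none of which was called, while Prmt8 had 1.07 ± 0.36 (limma adjusted p = 0.02). The glycolysis and hypoxia list had the opposite direction there, with 3 genes higher and 16 lower and a median of -0.51.

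**Figure D5:**
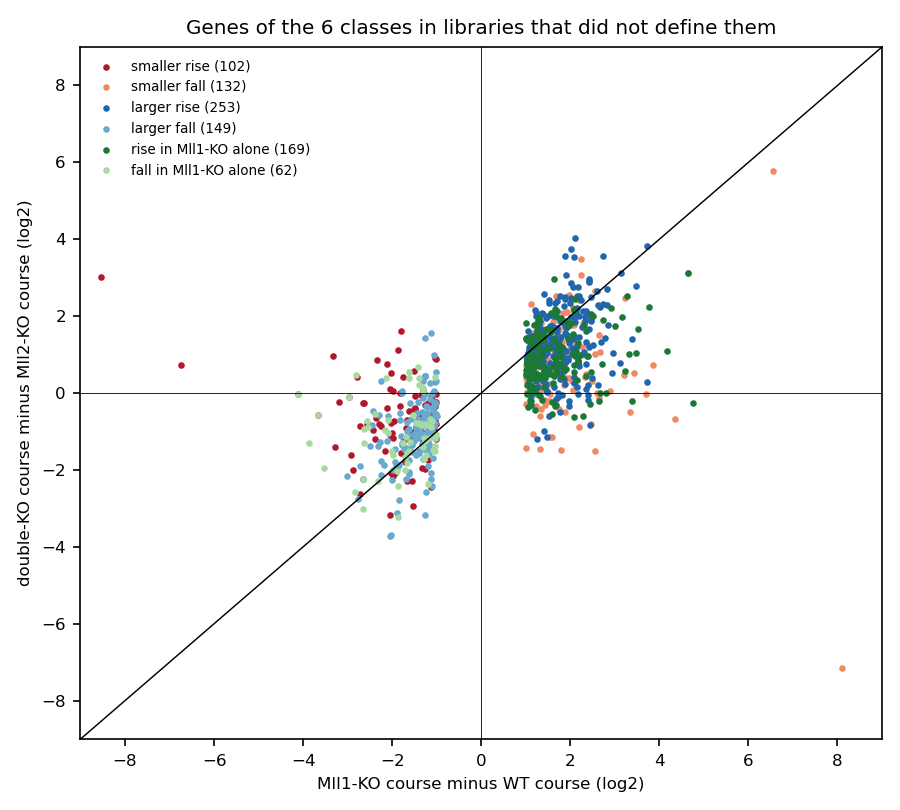
Course difference of the class genes, Mll1-KO minus WT (x axis), against double-KO minus Mll2-KO (y axis), both in log2. The axes share no library. Larger rises and falls lie mostly in the upper right and lower left, with 236 of 253 and 133 of 149 of the same sign and 1 point per gene.

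The Mll1-KO course was also set against the Mll2-KO course, which involves no WT library but the same Mll1-KO libraries, so its values stand beside the course difference and are not independent of it. That contrast was called for 8337 genes (55.2%). The median over the larger rises was 1.73, against 1.67 in the course difference with WT, and over the larger falls -1.89 against -1.31. For smaller rises it was -1.31 against -1.60, and for smaller falls 1.11 against 1.56. Hnf4a had 1.96 ± 0.53 (limma adjusted p = 0.003), Apoa1 had -3.64 ± 0.75 (limma adjusted p = 0.00018) and Apob had -2.80 ± 0.32 (limma adjusted p = 3.7e-08). Pou5f1 had -2.95 ± 0.12 (limma adjusted p = 1.4e-16) and Ndufa4l2 had -0.45 ± 0.38 (limma adjusted p = 0.32).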

How the data were processed

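PolyA RNA of 24 libraries (4 genotypes, 2 days, 3 replicates) was sequenced from stranded TruSeq libraries, per the labels' protocols. The submitters' processing notes name the mm10 build, the aligner STAR 2.7.10a with DESeq2 1.34.0 and RSEM 1.3.1, and also SAMtools 1.13, Trim Galore 3.4 and FastQC. The annotation and the handling of reads shared by gene copies are not given in the sources used here. The deposited values are a signal: gene counts that the authors divided by 1 size factor per library. Multiplying back gave whole reads for 100% of values (tolerance 1e-06), with 10.7 to 22.8 M reads (megareads) per library. Precision at low levels is limited by counting, and the intervals and floors given cover counting error only.

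Values were tested as log2(value + 1) in limma 3.58.1 (R 4.3.3) with an intensity trend, 1 term per group and no block, over 15114 of 19953 genes that reached 10 in at least 3 libraries, with Benjamini-Hochberg adjustment. The residual degrees of freedom were 16. As alternatives, edgeR 4.0.16 and DESeq2 1.42.0 were run on the recovered reads, and pseudocounts, filters, scaling, a replicate block, smaller sets of libraries and each library left out were tried. The fits were tested on simulated data. Gene coordinates are from GENCODE release 21 (GRCm38), which held 97.3% of the symbols, and promoter windows from RefSeq GRCm38.p6.

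Named genes are Kmt2a and Kmt2b, the 10 largest rises and falls of the Mll1-KO course (mean of at least 50 in the higher day, no overlap), the 6 largest course differences of each class, and called members of fixed lists. All Hox and retinoid genes could be named. Col4a1, Gata4, Gata6, Lin28a, Lrp2, Nanog, Pou3f1, Pou5f1 and Tbx3, list members outside that rule, were chosen after their values were seen, as were T, Mesp1 and the genes at the class limits. Results of 2 list members are not reported here. Members and lists were chosen with earlier results of these data known. The day 0 WT column names carry an extra letter that the labels do not explain.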

Additional observations from a re-analysis of the deposited data

Results flagged for a closer look

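Named genes drew attention where the test of the Mll1-KO course minus the WT course was called and the difference reached 4-fold, or where the courses were called in opposite directions. All values are course differences in log2 from limma, and the tests stand beside each gene above. The part that day 0 WT levels, glycolysis and hypoxia genes included, have in them was not tested.

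Smaller rises were Apoa1 (-3.28), Apob (-2.93), Afp (-2.87), Gpr50 (-2.43), Csn3 (-2.38) and Zfp781 (-2.62). Larger rises of endoderm and matrix genes were Sox17 (2.68), Hnf4a (3.38), Foxa2 (2.11), Dab2 (2.82), Cubn (2.24), Srgn (2.42) and Col4a2 (2.20), and other larger rises were Bmper (3.73), Igf1 (3.73), Pth1r (3.47), Aqp8 (3.15) and Cacna1h (2.96). Larger falls were Ttn (-3.02), Mir124a-1hg (-2.77), Serpina3m (-2.65), Acsbg3 (-2.49), Exoc3l (-2.45), Septin1 (-2.32), Ina (-2.05) and Rxrg (-2.72).

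Smaller falls, with high day 0 WT levels for most, were Stc1 (4.35), A2m (3.85), Ndufa4l2 (3.69), H2-Ab1 (3.21), Prmt8 (2.68) and Tmem254c (6.56). Rises past 2-fold in Mll1-KO alone were Cers1 (4.76), Ppp1r3c (3.53), Cdc42ep2 (3.38), Kbtbd11 (3.32), Pygl (3.24) and Adm (2.99). The fall past 2-fold in Mll1-KO alone was Slc23a1 (-2.84). Genes called in opposite directions in the genotypes also include Setd1b (-1.22), Kmt2c (-1.04) and Hk1 (1.07). The calls of Zfp781, Tmem254c and Afp depended on the library or the tool, as given above.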

How the results depend on the processing

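Each count was recomputed under 11 alternatives that left out no library and with each of 24 libraries left out in turn. Of 305 named results, 162 courses and 143 course differences, 272 were called, of which 37 lost the call in at least 1 alternative (11 courses and 26 differences) and 1 changed sign, the Mll1-KO course of Tbx3 with column totals (0.010). Of the 33 that were not called, 19 gained a call in at least 1 alternative, among them the course differences of Cyp26a1 and Hoxa9 without day 0 Mll1-KO replicate 2 (0.78 and -1.96), and of Col3a1 without day 0 WT replicate 2 (-1.67) and Ttr without replicate 3 of that group (-1.03). In all, 15 changed sign, and the cause was not tested. The Mll1-KO course turned with quantile scaling for Apob (-0.20), Cdx2 (-0.23), Sox7 (-0.53), Stc1 (-0.20) and Zfp781 (-0.011). The course difference turned with a pseudocount of 5 for Ccdc80 (0.091), Svep1 (0.10) and Foxa1 (-0.080), with quantile scaling for Foxa1 (-0.19), with column totals for Kmt2a (0.065), with edgeR for Ttr (0.60) and with edgeR and DESeq2 for Eif3j1 (1.43 and 1.59). With 1 library left out, the range of the course difference was -3.36 to 0.73 for Eif3j1, -0.063 to 0.15 for Foxa1, -0.26 to 0.25 for Kmt2a, -0.30 to 0.19 for Svep1 and -0.032 to 0.084 for Tbx3. The Mll1-KO course ranged over -0.32 to 3.36 for Tmem254c and -0.031 to 0.060 for Lrp2. The course difference was called for 8337 genes with Mll2-KO as the other course, against 5136 with WT, and the cause was not tested. The number of larger rises that were lower in Mll1-KO at day 0 was 142 with quantile scaling, against 216, and the cause was not tested. Counts of list members called were also less stable, as given beside them. The other totals over all genes and the class sizes stayed within 1.5 times of the reported ones, also with edgeR (12694 Mll1-KO course calls and 5218 differences) and DESeq2 (12612 and 5206).

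For counts with 1 library left out, the Mll1-KO course was called for 12376 to 12779 genes and the course difference for 4485 to 5440. Smaller courses then numbered 210 to 245, larger ones 349 to 422 and changes in Mll1-KO alone 195 to 240.

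Over all pairs of groups, same-numbered libraries had a median correlation of deviations of 0.00304, against -0.0042 for other numbers. This median mixes pairs of the same day and of different days. Day 4 Mll1-KO and day 4 WT gave 0.0371, 0.0375 and 0.0421 for the same number, against -0.0479 to 0.0107 for other numbers. Day 0 Mll1-KO and day 0 WT gave 0.00269, -0.00812 and 0.0012 for the same number. Whether libraries of the same number share a batch within a day was not tested. With a replicate block, 12698 genes were called in the Mll1-KO course, 12527 in the WT course and 5153 in the difference.

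Changes near 0 reads at day 0, as for Afp, Rarb and Col3a1, rest on few reads there, and their size depends on the pseudocount. The extra alternatives for the double-KO and Mll2-KO libraries were chosen after seeing the data.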
